A study of Homo sapiens with 36 samples.

Results

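The aryl hydrocarbon receptor pathway was followed here through 6 genes in human pancreatic cancer cells exposed to compounds that act on the liver X receptors (LXR), nuclear receptors for oxysterols. The genes were the receptor AHR, its DNA-binding partner ARNT, the repressor AHRR, the feedback enzyme TIPARP, and the cytochrome P450 genes CYP1A1 and CYP1B1. They were taken by gene symbol, as 6 of the 58243 genes counted, over all 36 libraries, with earlier results of these data known. Each of 3 established pancreatic ductal adenocarcinoma lines (PANC-1, MIA PaCa-2, BxPC-3) was treated for 48 h, and total RNA was sequenced. The groups in every line were 10 µM GW3965, a synthetic LXR agonist; 10 µM 3A4 and 10 µM 1E5, code-named compounds that the labels class as LXR inverse agonists, which lower a receptor's activity below its level without ligand; and DMSO, the solvent control. Every group held 3 libraries, called biological replicates with no word on separate cultures, so a p-value here reflects only library-to-library spread, which may be technical. The medium of BxPC-3 was RPMI 1640 and that of MIA PaCa-2 and PANC-1 was DMEM, each with 10% fetal bovine serum, so a difference of BxPC-3 from the other lines cannot be told apart from a difference of medium.

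AHR is a transcription factor of the bHLH-PAS family that waits in the cytoplasm with the chaperone HSP90. After binding a ligand, such as dioxin, polycyclic hydrocarbons or tryptophan breakdown products, it enters the nucleus, pairs with ARNT and binds DNA at elements with the core GCGTG. CYP1A1 and CYP1B1, which oxidise hydrocarbons and oestrogens, are its best-known targets, and AHRR and TIPARP are targets that in turn dampen it, AHRR by competing for ARNT and TIPARP by ADP-ribosylating the receptor.

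All coordinates are GRCh38 with the GENCODE 29 gene models. AHR (ENSG00000106546) lies at chr7:16916359-17346152 on the plus strand, and ARNT (ENSG00000143437) at chr1:150809705-150876768 on the minus strand. AHRR (ENSG00000063438) lies at chr5:304176-438291 on the plus strand, and TIPARP (ENSG00000163659) at chr3:156673235-156706770 on the plus strand. CYP1A1 (ENSG00000140465) lies at chr15:74719542-74725610 and CYP1B1 (ENSG00000138061) at chr2:38066973-38109902, both on the minus strand. The bases before the transcription start of 3 of them are shown because CYP1A1 and TIPARP were the members that stood farthest above DMSO with 1E5 in PANC-1 and AHRR is the target that was not called with any ligand. Each run is the 250 bases before a RefSeq start (GRCh38.p14), 5′ to 3′ on the gene's strand, with GCGTG or its reverse complement CACGC in capitals.
CYP1A1 (chr15:74725529-74725778, minus strand): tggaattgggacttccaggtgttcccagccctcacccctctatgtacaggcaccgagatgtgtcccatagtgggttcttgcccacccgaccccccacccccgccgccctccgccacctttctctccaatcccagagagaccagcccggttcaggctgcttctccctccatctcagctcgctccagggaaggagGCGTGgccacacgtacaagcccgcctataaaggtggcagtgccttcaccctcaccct
TIPARP (chr3:156674340-156674589, plus strand): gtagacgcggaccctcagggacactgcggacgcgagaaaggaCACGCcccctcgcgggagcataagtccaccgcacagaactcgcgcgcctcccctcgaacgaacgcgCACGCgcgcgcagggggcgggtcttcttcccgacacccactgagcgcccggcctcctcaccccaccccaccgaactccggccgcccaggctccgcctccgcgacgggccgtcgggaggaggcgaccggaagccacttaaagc
AHRR (chr5:321464-321713, plus strand): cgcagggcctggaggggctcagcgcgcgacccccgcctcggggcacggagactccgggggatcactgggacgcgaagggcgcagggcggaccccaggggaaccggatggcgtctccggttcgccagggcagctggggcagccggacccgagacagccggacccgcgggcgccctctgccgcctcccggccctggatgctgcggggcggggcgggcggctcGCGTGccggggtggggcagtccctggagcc
The search covered both strands from 250 bases before to 50 bases after each start. CYP1A1 held 1 GCGTG, at base -57 from the start. TIPARP held 2 matches, both as CACGC, at bases -208 and -142 from the start shown, and 0 around its 2 other annotated starts. AHRR held 1 GCGTG at base -30 before this start, inside the longer form TNGCGTG at base -32, and 2 more before its other annotated start. AHR held 1 GCGTG, at base 38 after its start, and ARNT held 0. GCGTG on either strand was found in 12832 of 35116 such windows, or 36.5%, and TNGCGTG in 5.51%. A match is a description of these letters and does not show that the receptor bound there. Bases outside these windows were not searched, so the counts do not rank the genes by all their elements. CYP1B1 was not matched in this table.

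The libraries held 2701393 to 26026684 counts. BxPC-3 and PANC-1 libraries held at least 14960970 counts, whereas in MIA PaCa-2 the totals were 2701393 to 13631719 with GW3965, 8889927 to 24588097 with 3A4, 23675670 to 25503827 with 1E5 and 3609582 to 10996848 with DMSO. The share of counts from mitochondrial genes was 2.04% ± 0.721 with 1E5 and 7.55% ± 0.0303 with DMSO in MIA PaCa-2, and 4.40% ± 1.995 with 1E5 and 6.82% ± 0.708 with DMSO in PANC-1 (SD, n = 3). Its part in the 1E5 results below was not tested. The epithelial keratins KRT8, KRT18 and KRT19 were present in every library. In MIA PaCa-2 the epithelial genes EPCAM and CDH1 stayed at or below 0.111 and 0.767 CPM (counts per 1000000 counts of the library, after scaling of the totals), and KRT7 at or below 8.83. SMAD4, deleted in BxPC-3, had 0 counts in all libraries of that line, and CDKN2A had 0 in all 36 libraries.

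Markers of other cell types were 2 leukocyte, 4 acinar, 3 fibroblast and 2 endothelial genes. The summed fibroblast list in MIA PaCa-2 was 93.3 to 166 CPM with 3A4, 8.996 to 27.9 with 1E5 and 246 to 252 with DMSO, nearly all of it COL1A2. In PANC-1 it was 10.04 to 32.9 with 3A4, 4.73 to 11.8 with 1E5 and 48.4 to 168 with DMSO, nearly all of it COL1A1. The summed endothelial list in MIA PaCa-2 was 6.99 to 11.6 with 3A4, 0 to 0.611 with 1E5 and 21.5 to 25.6 with DMSO, all of it CDH5. DCN of the fibroblast list and PECAM1 of the endothelial list had 0 counts in all libraries of both lines. All 4 acinar and 2 leukocyte genes had 0 in MIA PaCa-2. In BxPC-3 CDH5 ran from 6.01 to 20.9 CPM, PECAM1 from 0.734 to 2.46 and COL1A1 from 5.42 to 9.90. The acinar gene PRSS1 ran from 0.706 to 4.505 there, DCN reached 0.332 and the leukocyte gene CD3E 1.06. The summed epithelial list was also lower with 1E5, at 540 to 607 with 1E5 and 1364 to 1688 with DMSO in MIA PaCa-2, and 768 to 952 with 1E5 and 3260 to 5097 with DMSO in PANC-1. KRT8, KRT18 and KRT19 made up most of these sums. In PANC-1 the other epithelial genes KRT7, EPCAM and CDH1 were not lower, averaging 7.03, 35.2 and 72.5 CPM with 1E5 against 5.83, 28.9 and 47.5 with DMSO.

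Without ligand the 3 lines held the pathway in different proportions. AHR, the receptor, had the widest differences among the 5 members detected in all lines. Its level in DMSO libraries was 17.3 ± 3.63 CPM per kb of exon for BxPC-3, 0.253 ± 0.0627 for MIA PaCa-2 and 8.08 ± 1.23 for PANC-1 (SD, n = 3, scaled over all 36 libraries). AHR was 67.2-fold higher in BxPC-3 than in MIA PaCa-2 (log2 difference 6.07 ± 0.378 SE, adjusted p = 5.22e-14, edgeR's quasi-likelihood test with Benjamini-Hochberg adjustment). It was 2.15-fold higher in BxPC-3 than in PANC-1 (adjusted p = 0.00106) and 31.3-fold lower in MIA PaCa-2 than in PANC-1 (log2 difference -4.97 ± 0.372, adjusted p = 3.90e-12). MIA PaCa-2 held 6 to 21 AHR counts per DMSO library. In bulk RNA, fewer cells with a transcript and less transcript per cell cannot be told apart.

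ARNT ran the other way. It stood at 3.85 ± 0.301 CPM per kb for BxPC-3, 8.57 ± 0.678 for MIA PaCa-2 and 9.10 ± 1.01 for PANC-1. BxPC-3 was 2.23-fold lower than MIA PaCa-2 (adjusted p = 7.52e-08) and 2.37-fold lower than PANC-1 (adjusted p = 2.04e-08). The last pair, MIA PaCa-2 against PANC-1, did not pass the test, with a log2 difference of -0.08 (95% interval -0.38 to 0.21). AHRR stood at 2.75 ± 0.317 CPM per kb for BxPC-3, 0.882 ± 0.465 for MIA PaCa-2 and 3.83 ± 1.84 for PANC-1. It was lower in MIA PaCa-2 than in PANC-1 by 4.56-fold (adjusted p = 0.000167), and higher in BxPC-3 than in MIA PaCa-2 by 3.27-fold (adjusted p = 0.00182). BxPC-3 and PANC-1 did not differ beyond their spread.

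TIPARP stood at 20.3 ± 1.07 CPM per kb for BxPC-3, 5.12 ± 0.714 for MIA PaCa-2 and 6.63 ± 0.183 for PANC-1. BxPC-3 was 3.96-fold above MIA PaCa-2 (adjusted p = 2.28e-08) and 3.07-fold above PANC-1 (adjusted p = 5.00e-07). CYP1B1 stood at 8.57 ± 2.76 for BxPC-3, 0.985 ± 0.484 for MIA PaCa-2 and 25.5 ± 1.575 for PANC-1. It was 9.31-fold higher in BxPC-3 than in MIA PaCa-2 (adjusted p = 2.13e-07), 2.98-fold lower in BxPC-3 than in PANC-1 (adjusted p = 0.000472) and 27.7-fold lower in MIA PaCa-2 than in PANC-1 (adjusted p = 3.11e-10). CYP1A1 was low everywhere, at 0.597 ± 0.244 in BxPC-3 and 0.689 ± 0.0670 in MIA PaCa-2, and had 0 counts in all 3 PANC-1 DMSO libraries. At this depth 3 counts over those 3 libraries would be 0.0425 CPM.

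In order of level per kb, BxPC-3 held TIPARP, AHR, CYP1B1, ARNT, AHRR and CYP1A1, and the libraries of TIPARP and AHR overlapped. MIA PaCa-2 held ARNT and TIPARP well above CYP1B1, AHRR and CYP1A1, whose libraries overlapped, with AHR last. PANC-1 held CYP1B1 first, then ARNT, AHR and TIPARP close together, then AHRR, with CYP1A1 at 0. Of the 6 members, 5 differed between BxPC-3 and MIA PaCa-2, against 57.4% of the 22132 genes tested. Likewise 5 differed between BxPC-3 and PANC-1, against 52.5%, and 4 between MIA PaCa-2 and PANC-1, against 51.2%. These last counts each include CYP1A1, which was at 0 in the PANC-1 DMSO libraries, so nothing is read from its calls.

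**Figure D1:**
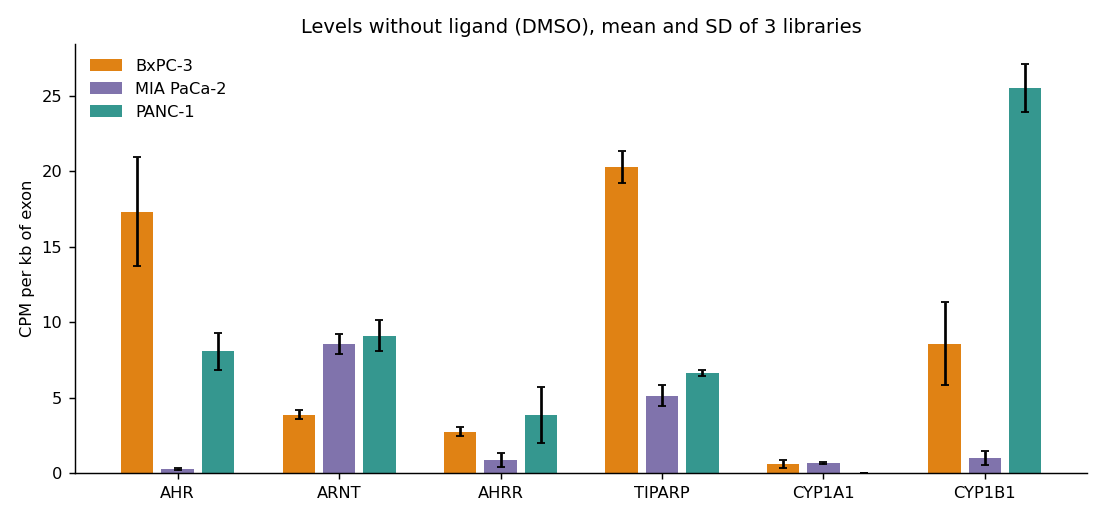
Level of the 6 members in the DMSO libraries of the 3 lines, as CPM per kb of exon on a linear axis; bars are means and whiskers SD of 3 libraries. AHR is lowest in MIA PaCa-2 at 0.253, CYP1B1 highest in PANC-1 at 25.5, and CYP1A1 is at 0 in PANC-1.

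With ligand, the members that moved were the feedback enzyme TIPARP, the CYP1 genes and, in MIA PaCa-2, the receptor itself and its partner ARNT. TIPARP rose with both inverse agonists in the DMEM-grown lines, with 1E5 by 3.15-fold in MIA PaCa-2 and by 5.65-fold in PANC-1. CYP1B1 rose 7.11-fold in MIA PaCa-2 and 1.99-fold in PANC-1 with 1E5. CYP1A1 was detected in PANC-1 only with ligand, and AHR rose 4.31-fold with 3A4 and 5.41-fold with 1E5 in MIA PaCa-2. No member was called lower than DMSO with any ligand, and 0 of 6 were called in BxPC-3 or with GW3965. Within a line the 3 comparisons with DMSO share the same DMSO libraries.

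These counts stand against wide responses of all genes. With 1E5, 4 of 6 members were called in MIA PaCa-2, all higher, where 47% of all 16254 genes tested were called and 23.6% were called higher. In PANC-1 the 1E5 count was 3 of 6, all higher, where 39.1% of 18544 genes were called and 19.7% were called higher. With 3A4 it was 2 of 6 in MIA PaCa-2, against 13.8% called and 7.3% called higher, and 2 of 6 in PANC-1, where 7.37% were called and 3.53% called higher. Both PANC-1 counts include CYP1A1, which had 0 counts with DMSO and entered the test through its ligand libraries, so that nothing is read from its calls. Of the 5 other members, 2 were called in PANC-1 with 1E5 and 1 with 3A4. The median log2 fold change of the 6 members with 1E5 was 1.36 for MIA PaCa-2 and 0.61 for PANC-1, beside 0.05 and 0.02 for all genes tested, with CYP1A1 among the members of PANC-1.

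**Figure D2:**
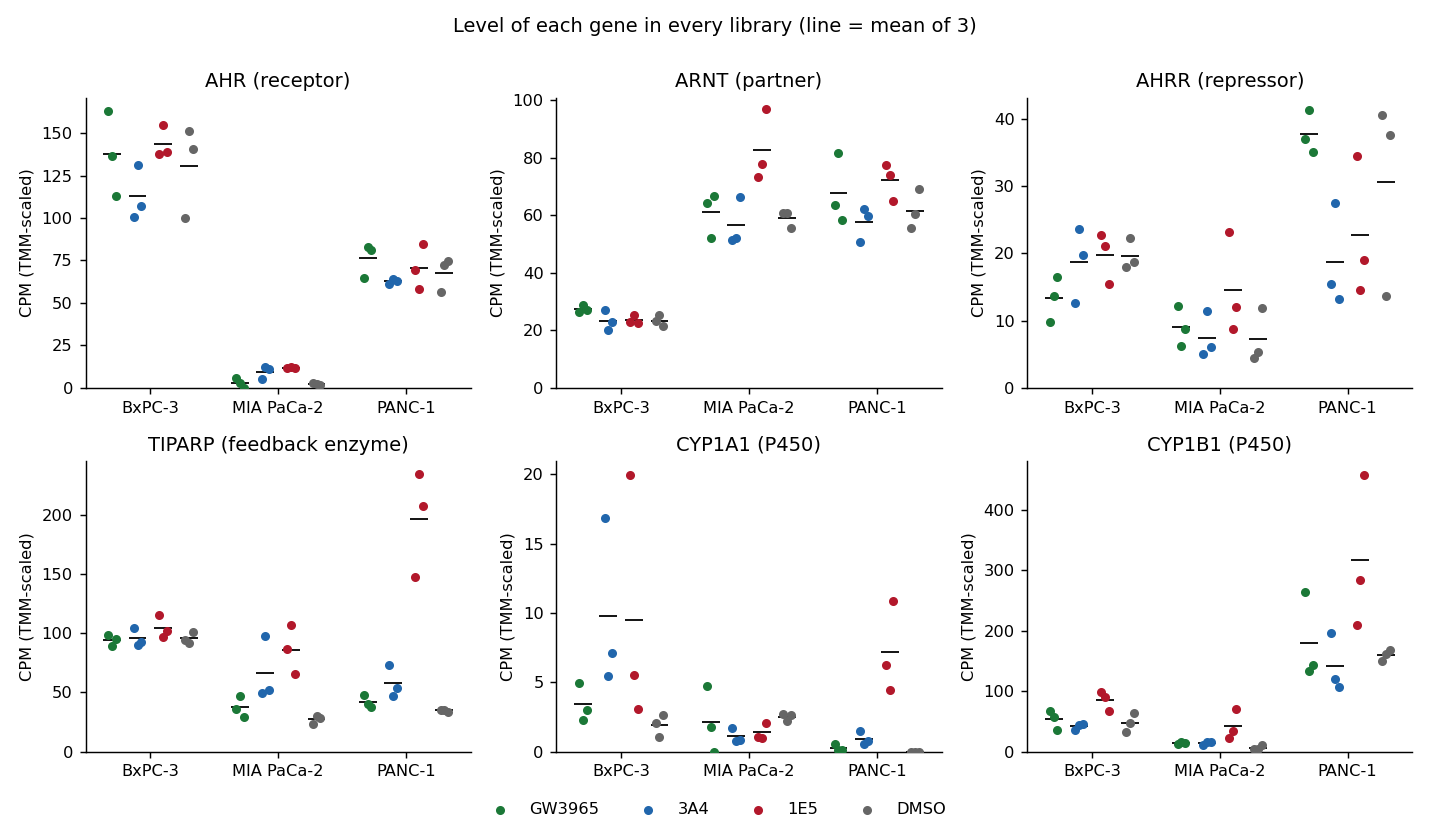
CPM of the 6 members in all 36 libraries on linear axes, by line and by ligand (colour), with points for libraries and short lines for the means of 3. TIPARP with 1E5 in PANC-1 lies between 148 and 235, above all 3 DMSO libraries at 33.8 to 35.3.

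AHR, the ligand sensor, was measured in MIA PaCa-2 at 5.61, 2.64 and 0 CPM with GW3965, 5.04, 12.1 and 10.9 with 3A4, 11.65, 12.4 and 11.49 with 1E5, and 2.74, 2.00 and 1.74 with DMSO (replicates 1 to 3). All 3A4 and 1E5 libraries lay above all DMSO libraries, and the GW3965 libraries straddled them. The log2 fold change was 2.11 ± 0.589 with 3A4 (adjusted p = 0.0341) and 2.44 ± 0.589 with 1E5 (adjusted p = 0.00459). The 3A4 call was lost without any 1 DMSO library, without 3A4 replicate 2 (adjusted p = 0.122) or 3, and when the 1E5 libraries were left out of the fit (adjusted p = 0.0673). Over all alternatives tried its adjusted p ran from 0.000156 to 0.122. The 1E5 libraries, at 11.49 to 12.4 CPM, lay far below the AHR level of the other lines. In BxPC-3 AHR ran from 100.1 to 162.7 CPM and in PANC-1 from 56.2 to 84.8 over all ligands, with no call. With 1E5 the interval of its log2 fold change was -0.24 to 0.52 in BxPC-3 and -0.28 to 0.40 in PANC-1.

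ARNT, the obligate partner of AHR and of the hypoxia factors, moved little. Its libraries in MIA PaCa-2 were at 64.4, 52.3 and 66.8 CPM with GW3965, 51.4, 52.2 and 66.3 with 3A4, 73.5, 77.9 and 97.1 with 1E5, and 60.7, 60.9 and 55.7 with DMSO. The 1E5 libraries lay above all the others of the line. Against DMSO alone, 31.9% of the genes so counted had that order. ARNT rose 1.40-fold with 1E5 (log2 0.49 ± 0.157, adjusted p = 0.0225). That call was lost without 1E5 replicate 3 (adjusted p = 0.0923), without DMSO replicate 3 (0.0616), and without the 2 libraries under 4e+06 counts, MIA PaCa-2 DMSO replicate 3 and GW3965 replicate 3 (0.0639), within a range of 0.00173 to 0.0923 over all alternatives. In the 10 comparisons where ARNT was not called, the intervals of its log2 difference lay within -0.64 to 0.54. ARNT spanned 20.2 to 28.8 CPM in BxPC-3 and 50.8 to 81.6 in PANC-1.

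AHRR, the repressor that shares ARNT with the receptor, was not called in any ligand comparison. In MIA PaCa-2 it was at 12.1, 6.29 and 8.83 CPM with GW3965, 5.04, 11.4 and 6.05 with 3A4, 23.2, 8.72 and 11.99 with 1E5, and 4.51, 5.33 and 11.9 with DMSO. The 1E5 and DMSO libraries overlapped, and 1E5 replicate 1 stood highest. The log2 fold change with 1E5 was 1.07 ± 0.469 (adjusted p = 0.0774). It passed the threshold with all 36 libraries in the fit (0.0343), with DESeq2 (0.0436), with no filter on low counts (0.0497), without the 2 shallowest libraries (0.0316), and without 1E5 replicate 2 (0.0449) or DMSO replicate 3 (0.0238), within a range of 0.0238 to 0.351 over all alternatives. In PANC-1 the libraries ranged from 13.2 to 41.3 CPM and in BxPC-3 from 9.79 to 23.7, and the DMSO libraries of PANC-1 alone spanned 13.6 to 40.6. AHRR values are uncertain because 244 exonic bases of AHRR are shared on the same strand with PDCD6, a calcium-binding protein gene with 105412 counts over all libraries. PDCD6 itself fell 1.72-fold with 3A4 (adjusted p = 0.0118, up to 0.0502 over the alternatives) and 2.38-fold with 1E5 (adjusted p = 7.56e-05) in MIA PaCa-2, and 1.33-fold with 1E5 in PANC-1 (adjusted p = 0.00696). Its part in the AHRR values was not tested.

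TIPARP, the mono-ADP-ribosyltransferase that shuts the receptor down, gave the most regular response. In PANC-1 it was at 48.0, 39.9 and 37.9 CPM with GW3965, 73.6, 47.1 and 53.5 with 3A4, 148, 235 and 208 with 1E5, and 35.2, 35.3 and 33.8 with DMSO. The 1E5 libraries lay above every other PANC-1 library, and the 3A4 and GW3965 libraries above every DMSO library. Such an order above DMSO held for 25.5% of the genes so counted with 1E5, 19.0% with 3A4 and 6.78% with GW3965. TIPARP rose 5.65-fold with 1E5 (log2 2.50 ± 0.201, 95% interval 2.06 to 2.94, adjusted p = 5.42e-06) and 1.67-fold with 3A4 (0.74 ± 0.193, adjusted p = 0.0410). The 3A4 call in PANC-1 rests on a narrow margin: it was lost without 3A4 replicate 1 (log2 0.53, adjusted p = 0.158) or 3 (0.0887), without any 1 DMSO library (0.0880 to 0.120), with no filter on low counts (0.0610) and with limma-voom (0.0579). Over all alternatives the adjusted p ran from 0.00609 to 0.158.

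In MIA PaCa-2 the TIPARP libraries were at 36.1, 47.1 and 29.5 CPM with GW3965, 49.1, 97.5 and 52.1 with 3A4, 86.7, 107 and 65.4 with 1E5, and 23.3, 30.1 and 28.7 with DMSO. Both inverse agonists lay above all DMSO libraries and overlapped each other. Of the genes so counted, 19.7% lay above DMSO in this way with 3A4 and 31.9% with 1E5. TIPARP rose 2.43-fold with 3A4 (log2 1.28 ± 0.280, adjusted p = 0.0131) and 3.15-fold with 1E5 (1.66 ± 0.281, adjusted p = 0.000429). The 3A4 call was lost without 3A4 replicate 2 (adjusted p = 0.0525) or without DMSO replicate 1 (0.0504), the range over all alternatives being 0.000133 to 0.0525. In BxPC-3, where TIPARP was highest before treatment, all 12 libraries lay between 89.7 and 116 CPM, and the widest interval bounds of a log2 fold change against DMSO were -0.24 and 0.35.

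CYP1A1, the hydrocarbon-oxidising enzyme used as the standard readout of AHR activity, was detected in PANC-1 only in ligand libraries. Its counts there were 13, 3 and 2 with GW3965, 37, 14 and 12 with 3A4, 158, 100 and 280 with 1E5, and 0, 0 and 0 with DMSO. In CPM these were 0.533, 0.119 and 0.0816 with GW3965, 1.49, 0.548 and 0.767 with 3A4, and 6.28, 4.44 and 10.8 with 1E5. Against the limit of 3 counts over the DMSO group, the mean was at least 5.76-fold higher with GW3965, at least 22.0-fold higher with 3A4 and at least 169-fold higher with 1E5. CYP1A1 entered the PANC-1 test only through its ligand libraries, so a difference from DMSO was built into its selection and no p is given for it. At its 1E5 level CYP1A1 was still 2.01 CPM per kb, beside 50.6 for CYP1B1 in the same libraries.

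CYP1A1 behaved otherwise in the other lines. In MIA PaCa-2 it was at 4.71, 1.79 and 0 CPM with GW3965, 1.72, 0.773 and 0.834 with 3A4, 1.07, 0.986 and 2.10 with 1E5, and 2.74, 2.19 and 2.61 with DMSO. Every 3A4 and 1E5 library lay below every DMSO library, at 9 to 55 counts per library in these groups. Among the 14593 genes counted above for such order, 18.3% were likewise lower with 3A4 and 30.5% with 1E5. The log2 fold changes were -1.22 ± 0.752 with 3A4 (adjusted p = 0.296) and -0.85 ± 0.724 with 1E5 (95% interval -2.41 to 0.72, adjusted p = 0.359). The GW3965 library at 0 held 2701393 counts in all, where 3 counts are 1.15 CPM.

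In BxPC-3 CYP1A1 was at 4.92, 2.27 and 3.03 CPM with GW3965, 16.9, 5.42 and 7.08 with 3A4, 19.9, 5.53 and 3.06 with 1E5, and 2.04, 1.08 and 2.61 with DMSO. All 3A4 and 1E5 libraries lay above all DMSO libraries, as for 9.55% of the genes so counted with 3A4 and 4.45% with 1E5. Replicate 1 was the highest of each ligand group. The log2 fold changes of 2.35 ± 0.678 with 3A4 (adjusted p = 0.227) and 2.31 ± 0.677 with 1E5 (adjusted p = 1) did not pass the threshold. They were 1.70 without 3A4 replicate 1 and 1.16 without 1E5 replicate 1. That 1E5 library also had the lowest mitochondrial share of the line, 6.01%, and its part was not tested.

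CYP1B1, which hydroxylates oestrogens and hydrocarbons and is often raised in tumours, was at 13.2, 15.1 and 13.8 CPM with GW3965 in MIA PaCa-2, 11.1, 15.8 and 15.7 with 3A4, 22.0, 34.7 and 71.3 with 1E5, and 4.19, 4.66 and 10.2 with DMSO. The libraries of each ligand lay above all DMSO libraries, as for 7.13% of the genes so counted with GW3965, 19.7% with 3A4 and 31.9% with 1E5. CYP1B1 rose 7.11-fold with 1E5 (log2 2.83 ± 0.429, 95% interval 1.90 to 3.76, adjusted p = 0.000187). With 3A4 the log2 fold change was 1.25 ± 0.422 (adjusted p = 0.0666) and with GW3965 it was 1.24 ± 0.436 (adjusted p = 0.398), neither called. The 3A4 value passed the threshold with DESeq2 (0.0199), with all 36 libraries (0.0245), with no filter on low counts (0.0383), without the 1E5 libraries (0.0364) and without DMSO replicate 3 (0.0497), within a range of 0.0199 to 0.188 over all alternatives.

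In PANC-1, the line richest in CYP1B1, the libraries were at 264, 133 and 143 CPM with GW3965, 197, 120 and 108 with 3A4, 210, 283 and 458 with 1E5, and 149, 161 and 168 with DMSO. The 1E5 libraries lay above all DMSO libraries, as for 25.5% of the genes so counted. The GW3965 and 3A4 libraries lay on both sides of the DMSO libraries. CYP1B1 rose 1.99-fold with 1E5 (log2 0.99 ± 0.330, adjusted p = 0.0329). The call was lost without 1E5 replicate 3 (log2 0.63, adjusted p = 0.153) or without any 1 DMSO library (0.0741 to 0.0932), within a range of 0.00900 to 0.153 over all alternatives. In BxPC-3 the libraries were at 66.8, 58.0 and 35.1 with GW3965, 35.1, 44.8 and 46.1 with 3A4, 98.9, 90.1 and 67.5 with 1E5, and 33.1, 47.4 and 63.5 with DMSO. The 1E5 libraries were the highest of that line, with a log2 fold change of 0.83 ± 0.265 that did not pass the adjustment (adjusted p = 1). Of the genes so counted, 4.45% lay above DMSO in every 1E5 library there.

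BxPC-3 gave few calls with the inverse agonists. With 3A4, 0 of 6 members were called, against 0.0333% of 18042 genes, and with 1E5 0 of 6, against 0% of genes. Without adjustment 1 of 6 members had p under 0.05 with 3A4, beside 2292 of all 18042 genes, and 2 of 6 with 1E5, beside 572. DESeq2 called CYP1A1 with 3A4 (adjusted p = 0.0124, range over all alternatives 0.0124 to 0.552) among 342 genes in all, and 0 members with 1E5, where it called 9 genes, and limma-voom called 0 members with each ligand.

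GW3965, the agonist, gave no member call. The count was 0 of 6 in each line, where 1.32% of all genes were called for BxPC-3, 0.523% for MIA PaCa-2 and 0.0485% for PANC-1. DESeq2 and limma-voom also called 0 members. In each line 1 member had an unadjusted p under 0.05, beside 2177 of 18042 genes in BxPC-3, 1420 of 16254 in MIA PaCa-2 and 831 of 18544 in PANC-1. These were AHRR in BxPC-3 (log2 -0.57 ± 0.248, adjusted p = 0.387), CYP1B1 in MIA PaCa-2 (adjusted p = 0.398) and CYP1A1 in PANC-1, whose DMSO libraries were at 0. The 95% interval of the log2 fold change was widest for CYP1A1, at -0.64 to 2.31 in BxPC-3 and -1.78 to 1.49 in MIA PaCa-2. That of TIPARP was -0.24 to 0.20 for BxPC-3, -0.14 to 1.09 for MIA PaCa-2 and -0.15 to 0.69 for PANC-1.

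**Figure D3:**
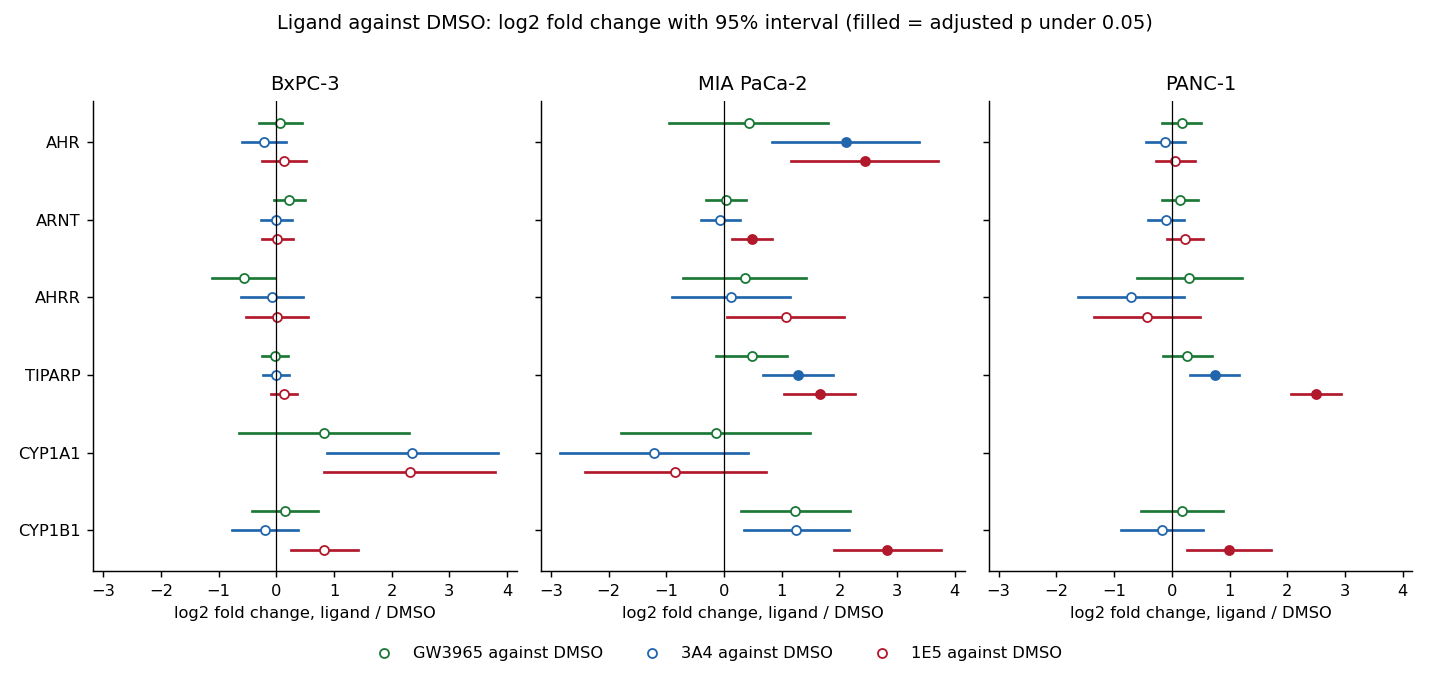
Log2 fold change of each member against DMSO with GW3965, 3A4 and 1E5 in the 3 lines, with 95% intervals from edgeR. Filled markers have an adjusted p under 0.05; CYP1A1 in PANC-1 is left out because DMSO is at 0 there, and TIPARP with 1E5 in PANC-1 is at 2.50.

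The inverse agonists were compared with each other at the same dose and time, in 18 tests of a member in a line. Of the 5 that were called, all were lower with 3A4 than with 1E5. In PANC-1 CYP1A1 was 7.62-fold lower with 3A4 than with 1E5 (log2 difference -2.93 ± 0.617, adjusted p = 0.00485), TIPARP 3.39-fold lower (-1.76 ± 0.195, adjusted p = 5.35e-05) and CYP1B1 2.24-fold lower (-1.16 ± 0.331, adjusted p = 0.0170). These were 3 of 6 members, against 37.3% of genes called and 18.8% called lower. For CYP1A1, TIPARP, CYP1B1 and the uncalled ARNT in PANC-1 no 3A4 library reached the lowest 1E5 library. The same held for 26.3% of the genes counted for such order in this comparison. The CYP1B1 call was lost without 1E5 replicate 3 (adjusted p = 0.0773) and without 3A4 replicate 2 (0.0647) or 3 (0.0707), within a range of 0.00186 to 0.0773 over all alternatives.

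In MIA PaCa-2 CYP1B1 was 2.99-fold lower with 3A4 than with 1E5 (-1.58 ± 0.385, adjusted p = 0.00741) and ARNT 1.46-fold lower (-0.55 ± 0.156, adjusted p = 0.0169), or 2 of 6 members against 32.4% of genes called and 15.1% called lower. The ARNT call was lost without 1E5 replicate 3 (0.0724) or 3A4 replicate 1 (0.0788), within a range of 0.00225 to 0.0788 over all alternatives. AHR in that line was not shown to differ between the compounds, with a log2 difference of -0.33 (95% interval -1.43 to 0.77). For TIPARP in MIA PaCa-2 the log2 difference was -0.38 (95% interval -0.95 to 0.20), but it was -0.77 and passed the threshold without 3A4 replicate 2 (adjusted p = 0.0251, range 0.0251 to 0.711). In BxPC-3 0 of 6 members were called, against 0.144% of genes. By size CYP1B1 came nearest there (-1.03 ± 0.266, adjusted p = 0.155, DESeq2 0.0109 among 434 genes called in all, range 0.0109 to 0.491), and CYP1A1 had a log2 difference of 0.04 with a 95% interval of -1.32 to 1.41.

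**Figure D4:**
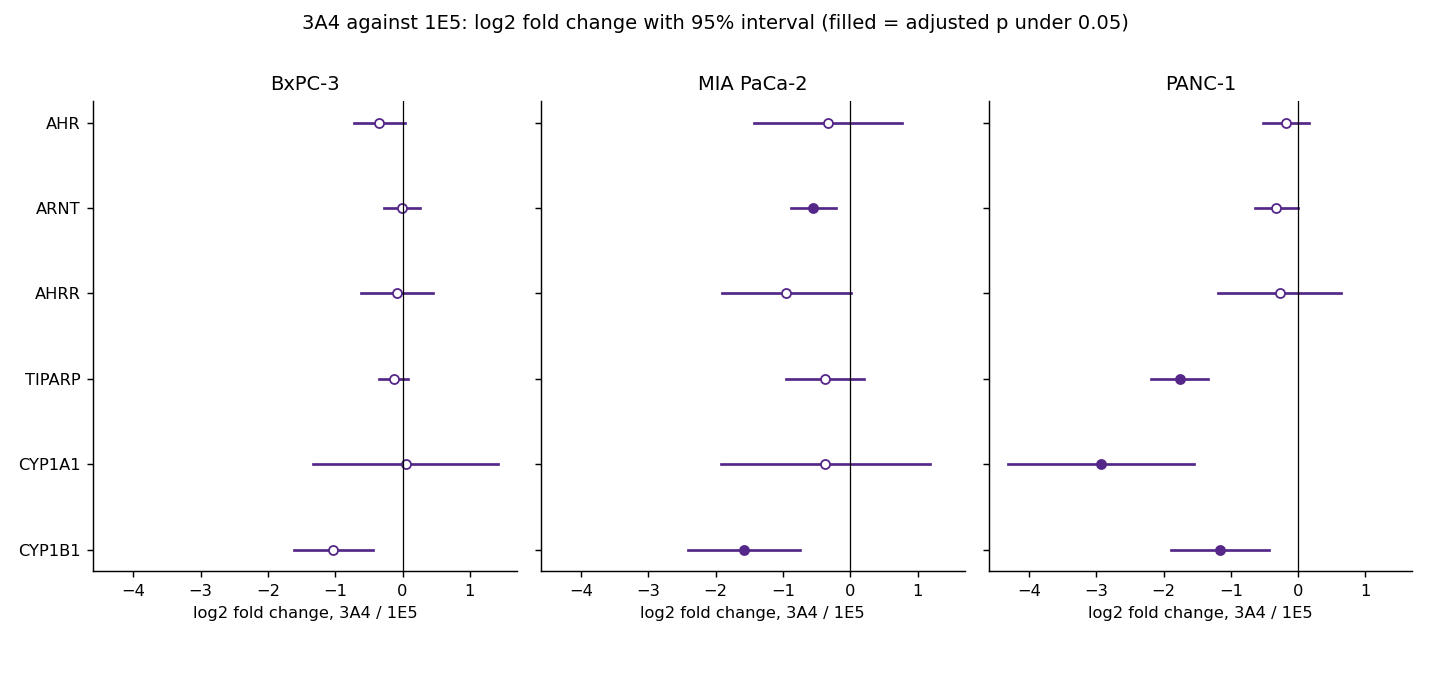
Log2 difference of each member with 3A4 against 1E5 in the 3 lines, with 95% intervals from edgeR; filled markers have an adjusted p under 0.05. In PANC-1 CYP1A1, TIPARP and CYP1B1 lie below 0, at -2.93, -1.76 and -1.16.

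Whether the lines differed in their response was tested as an interaction of ligand and line over all 36 libraries (F test in edgeR with Benjamini-Hochberg adjustment). With 1E5 the response differed among lines for 4 of 6 members, where 38.5% of 22132 genes were called: TIPARP (adjusted p = 3.14e-06), CYP1A1 (1.94e-05), AHR (0.000163) and CYP1B1 (0.00458). AHRR (0.0804) and ARNT (0.0722) did not pass, but AHRR passed in 4 fits that left out 1 library, of MIA PaCa-2 or PANC-1 (range over all alternatives 0.0239 to 0.307), and ARNT in 2 (range 0.0426 to 0.196). With 3A4 it differed for 3 of 6, where 5.89% were called: AHR (adjusted p = 0.00260), CYP1A1 (0.00777) and TIPARP (0.0209). The TIPARP result with 3A4 was lost without MIA PaCa-2 3A4 replicate 2 (0.0865) or DMSO replicate 1 (0.0611), within a range of 0.00381 to 0.0865 over all alternatives, and CYP1B1 with 3A4 did not pass (0.113). With GW3965 the count was 0 of 6, where 0.104% of genes were called. The CYP1A1 tests use the PANC-1 DMSO libraries, which had 0 counts. CYP1A1 is among the members counted with 1E5 and 3A4, but nothing is read from its calls.

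The receptor's chaperones and coactivators, 10 genes that hold AHR ready in the cytoplasm or help it open chromatin, gave these counts in the lines with wide responses; the difference between lines was not tested. Counts in this and the next lists stand beside the shares of all genes called in either direction, 13.8% with 3A4 and 47% with 1E5 in MIA PaCa-2, and 7.37% with 3A4 and 39.1% with 1E5 in PANC-1. With 1E5, 5 of 10 were called higher and 2 lower in MIA PaCa-2 (median log2 0.43, all genes 0.05), and 0 were higher and 5 lower in PANC-1 (median -0.43, all genes 0.02). In MIA PaCa-2 NCOA1, a histone acetyltransferase coactivator, rose 2.48-fold, to 45.5 ± 2.79 CPM with 1E5 against 18.4 ± 1.96 with DMSO (adjusted p = 3.10e-05). CREBBP, another acetyltransferase, rose 1.97-fold there (adjusted p = 0.00224), and the chaperone HSP90AB1 fell 1.40-fold (adjusted p = 0.0219, up to 0.118). In PANC-1 NRIP1, a corepressor and known target of nuclear receptors, averaged 67.5 ± 3.62 with 3A4, 14.0 ± 6.55 with 1E5 and 24.7 ± 2.25 with DMSO. It rose 2.73-fold with 3A4 (adjusted p = 0.0129, up to 0.0610 over the alternatives) and fell 1.76-fold with 1E5 (adjusted p = 0.0402, up to 0.130). NCOA2, another coactivator of that family, fell 1.63-fold with 1E5 there (adjusted p = 0.00760). With 3A4 1 gene was called higher and 0 lower in each of these lines, in MIA PaCa-2 the chaperone HSP90AA1, at 5893 ± 607 against 3285 ± 836 with DMSO (1.79-fold, adjusted p = 0.0259, up to 0.0959).

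Among 18 further genes described as AHR targets, those tested were 11 in MIA PaCa-2, 9 in PANC-1 and 15 in BxPC-3. In MIA PaCa-2 5 were called higher and 1 lower with 3A4 (median log2 0.45, all genes 0.03), and again 5 and 1 with 1E5 (median 0.85, all genes 0.05). IL1B, the inflammatory cytokine, averaged 23.6 ± 7.95 CPM with GW3965, 43.7 ± 4.64 with 3A4, 64.2 ± 16.6 with 1E5 and 8.33 ± 1.40 with DMSO, so it rose with all 3 ligands in MIA PaCa-2. Its folds were 2.89 with GW3965 (adjusted p = 0.0293, up to 0.149 over the alternatives), 5.28 with 3A4 (adjusted p = 0.000540) and 7.75 with 1E5 (adjusted p = 4.75e-06). NQO1, a quinone reductase that NRF2 also drives, fell to 343 ± 25.1 with 3A4 and 539 ± 20.0 with 1E5, against 787 ± 152 with DMSO (adjusted p = 0.00117 and 0.0106, the second up to 0.0616).

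In PANC-1 5 of 9 were called higher and 2 lower with 1E5 (median log2 0.80, all genes 0.02), and with 3A4 2 higher and 0 lower (median 0.04, all genes 0.01). AREG, an EGF receptor ligand, averaged 4.26 ± 0.350 CPM with 3A4, 6.54 ± 0.509 with 1E5 and 1.24 ± 0.345 with DMSO in PANC-1, a rise of 3.42-fold and 5.25-fold (adjusted p = 0.00171 and 1.71e-05). STC2, a secreted glycoprotein, rose 2.91-fold with 1E5, to 275 ± 22.2 against 94.5 ± 45.7 with DMSO (adjusted p = 0.000694). ABCG2, a drug efflux pump, fell 4.22-fold with 1E5 in PANC-1, to 40.9 ± 3.87 against 173 ± 33.4 with DMSO (adjusted p = 7.33e-06). In MIA PaCa-2 the same gene was at 2.25 ± 0.0789 with 3A4, 2.13 ± 0.555 with 1E5 and 0.405 ± 0.353 with DMSO. It passed the low-count filter there through its ligand libraries, so no p is given for it. It is among the genes of this list called higher in MIA PaCa-2 with each compound, and nothing is read from its calls. EREG, another EGF receptor ligand, rose 3.06-fold with 3A4 in PANC-1, to 16.5 ± 2.71 against 5.37 ± 1.52 with DMSO (adjusted p = 0.0151, up to 0.0726). CYP1A2, the hepatic neighbour of CYP1A1, had 3 counts in all, in BxPC-3 with 3A4.

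ARNT also serves the hypoxia factors, whose targets were followed as 10 genes. In MIA PaCa-2 VEGFA, the vascular growth factor, averaged 148 ± 16.4 CPM with GW3965, 355 ± 71.5 with 1E5 and 60.2 ± 6.39 with DMSO, a rise of 2.46-fold with GW3965 (adjusted p = 0.0219, up to 0.0993) and 5.91-fold with 1E5 (adjusted p = 3.29e-06). NDRG1, a stress-induced growth suppressor, rose 7.35-fold with 1E5 in that line (adjusted p = 5.71e-07). In PANC-1 VEGFA rose 4.49-fold and SLC2A1, the GLUT1 glucose transporter, 6.12-fold with 1E5 (adjusted p = 7.42e-05 and 1.60e-05). EGLN3, an oxygen-sensing hydroxylase that hypoxia usually raises, fell 3.84-fold with 1E5 in PANC-1 (adjusted p = 0.00372). With 3A4 the histone demethylase KDM3A rose 1.55-fold (adjusted p = 0.0179, up to 0.0688) and SLC2A1 1.51-fold (adjusted p = 0.0140, up to 0.0584) in MIA PaCa-2, and BNIP3, a mitophagy receptor, fell 1.68-fold in PANC-1 (adjusted p = 0.0345, up to 0.175). The counts were 3 of 8 higher and 0 lower with 1E5 in MIA PaCa-2, against 47% of all genes called (median log2 0.25, all genes 0.05), and 2 of 9 higher and 1 lower in PANC-1, against 39.1% (median 0.27, all genes 0.02). Taken in either direction, neither count lay above the share of all genes. The shares of all genes called higher were 23.6% and 19.7%. With 3A4 2 of 8 were higher and 0 lower in MIA PaCa-2, against 13.8% called, and 0 of 9 higher and 1 lower in PANC-1, against 7.37%. With GW3965 1 of 8 was higher and 0 lower in MIA PaCa-2, against 0.523%.

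Other bHLH-PAS factors, relatives of AHR and ARNT, were called higher 5 of 9 times and lower 0 times with 1E5 in MIA PaCa-2 (median log2 0.70, all genes 0.05). BMAL2, a circadian partner related to ARNT, rose there to 13.0 ± 4.18 with 3A4 and 26.7 ± 10.1 with 1E5, against 3.32 ± 2.13 with DMSO, or 4.01-fold and 8.25-fold (adjusted p = 0.0153, up to 0.0635, and 0.000185). BMAL1, the circadian factor that pairs with CLOCK, rose 1.89-fold with 3A4 in MIA PaCa-2 (adjusted p = 0.0298, up to 0.108). ARNT2, the close homologue of ARNT, was 4.57-fold higher with 1E5 in MIA PaCa-2, at 3.39 ± 1.12 against 0.737 ± 0.220 with DMSO. It passed the low-count filter there through its ligand libraries. It is among the factors counted higher in that line, but no p is given and nothing is read from its call. In PANC-1 it fell 1.91-fold with 1E5, to 19.2 ± 4.37 against 36.9 ± 10.6 with DMSO (adjusted p = 0.00961). There 3 of 9 factors were higher and 1 lower with 1E5 (median 0.44, all genes 0.02), among them the circadian factor NPAS2, up 2.32-fold (adjusted p = 0.000192), and NPAS1, up 2.44-fold to 3.35 ± 1.11 against 1.36 ± 0.326 with DMSO (adjusted p = 0.00876).

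The mono-ADP-ribosyltransferases of the PARP family, to which TIPARP belongs, were 11 genes tested in each line. With 1E5 5 were called higher and 1 lower in MIA PaCa-2 (median log2 0.64, all genes 0.05) and 5 and 1 in PANC-1 (median 0.38, all genes 0.02). PARP8 had 0 counts in the MIA PaCa-2 DMSO libraries and 3.74 ± 0.467 CPM with 1E5, at least 25.2-fold above the limit of 3 counts over the DMSO group, and entered the test through its ligand libraries. It is in the MIA PaCa-2 count and median given above, and nothing is read from its call. PARP11 rose by 1.43 on the log2 scale with 1E5 there, to 26.1 ± 0.915 against 9.60 ± 1.28 with DMSO (adjusted p = 0.00539). PARP6 rose 2.48-fold and PARP3 2.11-fold with 1E5 in PANC-1 (adjusted p = 1.96e-05 and 0.000562). PARP9, an interferon-stimulated member, was called lower in 4 comparisons with DMSO. In BxPC-3 it averaged 95.7 ± 24.5 with GW3965 against 238 ± 32.4 with DMSO (2.49-fold lower, adjusted p = 0.0142, up to 0.0685), and there 4 of 11 of these genes fell with GW3965 and 0 rose, where 1.32% of all genes were called (median log2 -0.18, all genes -0.0037). PARP10, another member, was at 18.4 ± 0.606 with GW3965 against 40.1 ± 5.34 with DMSO in that line (2.18-fold lower, adjusted p = 0.00563). In MIA PaCa-2 PARP10 fell 3.63-fold with 3A4, to 2.45 ± 1.335 against 8.69 ± 1.85 with DMSO (adjusted p = 0.01003). PARP9 fell 1.47-fold with 1E5 (adjusted p = 0.0299, up to 0.182) in MIA PaCa-2 and 1.94-fold with 1E5 in PANC-1 (adjusted p = 0.00379). In MIA PaCa-2 it fell 2.59-fold with 3A4 (adjusted p = 0.00194), where 1 gene of the family rose and 3 fell (median -0.42, all genes 0.03).

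Enzymes that make or clear the tryptophan products that bind AHR were called in both directions. IDO1, which opens the tryptophan ring, fell 3.47-fold with GW3965 in BxPC-3, to 3.32 ± 1.02 CPM against 11.48 ± 1.35 with DMSO (adjusted p = 0.00980, up to 0.0782 over the alternatives). It was the 1 gene called of 7 tested there. With 1E5 0 of 4 were higher and 2 lower in MIA PaCa-2 (median log2 -0.17, all genes 0.05), the kynurenine aminotransferase KYAT1 by 3.17-fold (adjusted p = 0.00110) and the formamidase AFMID by 1.60-fold (adjusted p = 0.0256, up to 0.111), and 2 of 6 were higher and 1 lower in PANC-1 (median 0.36, all genes 0.02). In PANC-1 KYAT3, another such aminotransferase, rose 2.01-fold (adjusted p = 3.82e-05) and AFMID 1.63-fold (adjusted p = 0.00967), and KMO, the kynurenine hydroxylase, averaged 1.295 ± 0.566 with 1E5 against 6.73 ± 3.90 with DMSO (5.17-fold lower, adjusted p = 0.00801, up to 0.0560). Among the genes of PXR, CAR and other drug-metabolising P450 enzymes, 6 passed the low-count filter for BxPC-3, 2 for MIA PaCa-2 and 1 for PANC-1. That 1 gene, POR, the reductase that feeds electrons to every microsomal P450 including the CYP1 enzymes, rose 2.35-fold with 1E5 in PANC-1, to 266 ± 36.2 against 113 ± 11.3 with DMSO (adjusted p = 2.66e-05). In BxPC-3 0 genes of these 7 lists were called with 3A4 or 1E5, where 0.0333% and 0% of all genes were.

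**Figure D5:**
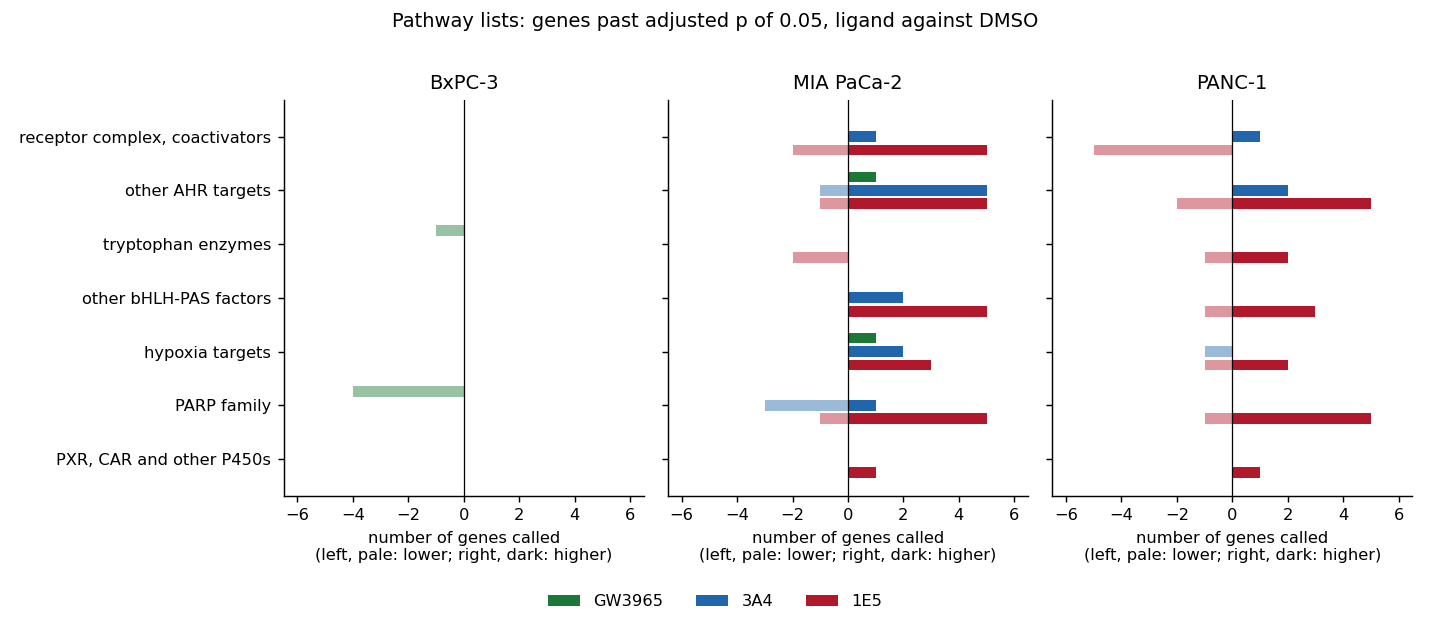
Number of genes called in each pathway list against DMSO, with genes called lower drawn to the left of 0 in pale bars and genes called higher to the right in dark bars, by line and ligand. With 1E5 the receptor complex list has 5 higher and 2 lower in MIA PaCa-2 and 0 higher and 5 lower in PANC-1.

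Antisense and neighbouring genes of the members were also counted. CYP1B1-AS1 shares 678 exonic bases with CYP1B1 on the opposite strand and had 950 counts in all, and TIPARP-AS1 shares 37 bases with TIPARP, with neither called against DMSO in any line. AHR shares 2373 exonic bases on the same strand with AC019117.2, which had 105 counts in all, so AHR counts may be split with it. The library kit keeps strand, but the strand setting of the counting is not given in the sources used here. EXOC3, the gene next to AHRR, rose 1.37-fold with 1E5 in PANC-1 (adjusted p = 0.00528). PDCD6-AHRR, AHR-AS1 and ARNT-AS1 were not analysed here.

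Across the 36 libraries, after the mean of each line was taken off log2(CPM + 1), the genes most like each member were ranked by Pearson's r among 14214 genes. The points share line, ligand and depth, so r is a description. TIPARP was most like GPCPD1 (r = 0.934), RFFL (0.926) and MED10 (0.917). AHR was most like PRKAA1 (0.900), KIF5B (0.898) and BAG4 (0.896). CYP1B1 was most like IBTK (0.820), SIRT5 (0.798) and MIA2 (0.790), and CYP1A1 most like LIAS (0.814), NAT9 (0.800) and EXOSC1 (0.767). ARNT was most like HERPUD2 (0.764), ZNF516 (0.764) and OPTN (0.756), and AHRR, the least closely matched, most like LIPT2-AS1 (0.687), MKKS (0.659) and C11orf58 (0.646). Between members the values were lower. TIPARP had r = 0.624 with CYP1B1 and 0.522 with CYP1A1, whereas CYP1A1 had r = 0.0152 with AHR and 0.236 with CYP1B1.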

How the data were processed

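RNA of 36 libraries (3 lines, 4 treatments, 3 replicates each) was prepared with a stranded total RNA kit, per the labels' protocols. The authors deposited whole-number counts per gene. The submitters' processing notes name Trim Galore 0.4.4, HISAT2 2.0.2, SAMtools 1.3, StringTie 1.3.1c and GRCh38; no annotation or strand setting for the counting is given there.

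Of 58658 lines, 407 transcript lines and 8 locus lines, at most 0.00396% of a library's counts, were left out. Within each line the 12 libraries were fitted with edgeR 4.0.16 (R 4.3.3): TMM scaling, filterByExpr at its defaults (minimum count 10, minimum total 15), a quasi-likelihood test, Benjamini-Hochberg adjustment over all genes tested, called under 0.05. Errors of log2 fold changes are standard errors; means carry SD over 3 libraries. Interactions and DMSO levels used 1 fit of all 36 libraries. CPM values use the scaled totals, and per kb the union of GENCODE 29 exons. Alternatives were RLE scaling, no low-count filter, a replicate block, only the 6 libraries compared, all 36 libraries, limma-voom 3.58.1, DESeq2 1.42.0 and leaving out each replicate. Leaving out the 2 libraries under 4e+06 counts, or all 1E5 libraries, was chosen after seeing the data. The fits were tested on simulated data. Replicate pairs differed beyond sampling noise (chi-square per degree of freedom 8.10 to 139.6).

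The members and the 8 gene lists (95 genes, 92 in the table) were chosen with earlier results of these data known. Named list genes are up to 2 per direction and comparison with the largest fold among called genes with a group mean of at least 2 CPM; "up to" gives the highest adjusted p over the alternatives where one lost the call. A gene that this rule selects is not reported here. Symbols of 57532 of 58243 genes came from a gene name table. Limits from 3 counts cover counting error only. Promoter windows are from RefSeq (GRCh38.p14).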

Additional observations from a re-analysis of the deposited data

Results flagged for a closer look

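The 7 results listed here are responses that differed between the 3 lines by a direct test, the interaction of ligand and line over all 36 libraries in edgeR. With 1E5 the adjusted p was 3.138e-06 for TIPARP, 1.936e-05 for CYP1A1, 0.0001632 for AHR and 0.004575 for CYP1B1. With 3A4 it was 0.002596 for AHR, 0.007771 for CYP1A1 and 0.02094 for TIPARP. The log2 fold changes within lines were, for TIPARP with 1E5, 0.13 for BxPC-3, 1.66 for MIA PaCa-2 and 2.50 for PANC-1, and with 3A4 -0.0013 for BxPC-3, 1.28 for MIA PaCa-2 and 0.74 for PANC-1. For AHR they were 2.44 with 1E5 and 2.11 with 3A4 in MIA PaCa-2, 0.14 with 1E5 and -0.21 with 3A4 in BxPC-3, and 0.06 with 1E5 and -0.11 with 3A4 in PANC-1. For CYP1B1 with 1E5 they were 0.83 for BxPC-3, 2.83 for MIA PaCa-2 and 0.99 for PANC-1. For CYP1A1 they were 2.31 in BxPC-3 and -0.85 in MIA PaCa-2 with 1E5, and 2.35 in BxPC-3 and -1.22 in MIA PaCa-2 with 3A4, while in PANC-1 the DMSO libraries were at 0. The adjusted p values of CYP1A1 rest in part on those libraries, so nothing is read from them. BxPC-3 was also the line in another medium, which cannot be told apart from the line.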

How the results depend on the processing

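The cases in which the count of members called changed include these. In MIA PaCa-2 DESeq2 called 5 in place of 4 members for 1E5 against DMSO and 3 in place of 2 for 3A4 against DMSO. There AHRR with 1E5 and CYP1B1 with 3A4 also passed with all 36 libraries in the fit and with no filter on low counts. DESeq2 called 1 in place of 0 for 3A4 against DMSO (342 in place of 6 of all genes) and 1 in place of 0 for 3A4 against 1E5 (434 in place of 26), both in BxPC-3. For 3A4 against DMSO in PANC-1 the count was 1 in place of 2 with no filter on low counts, with limma-voom and with the replicate block, where TIPARP had an adjusted p of 0.0542. Leaving out 1 library gave 3 to 5 for 1E5 in MIA PaCa-2, 0 to 2 for 3A4 in MIA PaCa-2, 1 to 3 for 3A4 against 1E5 in MIA PaCa-2, 2 to 3 for 1E5, 1 to 2 for 3A4 and 2 to 3 for 3A4 against 1E5 in PANC-1, and 4 to 5 for the 1E5 and 2 to 3 for the 3A4 interaction. Among the values followed, the sign turned for uncalled CYP1A1 values: 3A4 against 1E5 in BxPC-3 ran from -0.60 to 1.18 (log2), and DMSO BxPC-3 against MIA PaCa-2 from -0.48 to 0.10. Over all results followed, settings other than leaving out a library gave the same verdict 744 times, a call gained 11 times and a call lost 33 times, and leaving out a library gave the same verdict 864 times, a call gained 10 times, a call lost 88 times and a turned sign 4 times. The main fits did not pair libraries by the replicate numbers of the labels. Over 36 pairs of same-numbered libraries the correlation of deviations was -0.06238 to 0.2292, and 0 of 12 comparisons had all pairs over 0.1. These values do not show whether equal numbers mark a shared culture. With the replicate block all genes called in BxPC-3 went from 6 to 275 for 3A4 and from 239 to 478 for GW3965 against DMSO. They went from 26 to 412 for 3A4 against 1E5 and stayed at 0 for 1E5. For GW3965 in MIA PaCa-2 they went from 85 to 64. With the block CYP1B1 with 3A4 in MIA PaCa-2 also passed (adjusted p = 0.0205), giving 3 in place of 2. In MIA PaCa-2 AHR and CYP1A1 rested on 6 to 23 counts per DMSO library.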
